A study of Mus musculus with 16 samples.

Results

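The comparison described here is the effect of BCR-ABL1 in pre-B cells that lack SHP2. It used 8 of the 16 mouse RNA-seq libraries of the study, chosen by their labelled genotype, namely 4 SHP2-null libraries with BCR-ABL1 and 4 SHP2-null libraries without it. The labels give the first group as BCR-ABL WT (+/+) and the second as BCR-ABL NULL (-/-), and both as SHP2 NULL (-/-), so loss of SHP2 was common to the cells compared. The second group is called the control cells below. The other 8 libraries, 4 with and 4 without BCR-ABL1 in SHP2 WT (+/+) cells, shared the estimate of the spread and served to compare the effect between SHP2-null and SHP2 wild-type cells. Replicates are numbered 0 to 3, as in the labels, and values by library are given in that order. The sources used here do not state how BCR-ABL1 was introduced, how SHP2 was deleted, the strain and age of the mice, or whether the 4 samples of each group are different animals or cultures. The p-values therefore cover only the variation among these samples, part or all of which may be technical.

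Pre-B cells are B-lineage precursors that assemble their immunoglobulin genes and grow in response to interleukin 7. BCR-ABL1 is a fusion of the BCR and ABL1 genes that makes the ABL1 tyrosine kinase constitutively active, and it is known for driving acute lymphoblastic leukaemia from such cells. SHP2, encoded by Ptpn11, is a tyrosine phosphatase that binds the GAB scaffold proteins and carries signals from receptors and kinases to RAS and ERK. Active ERK induces genes for its own inhibitors, such as the DUSP phosphatases and the Sprouty and SPRED proteins, and STAT5 is another factor that BCR-ABL1 and the interleukin 7 receptor both activate.

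Genes with at least 1 FPKM (sequenced fragments per transcript length, scaled to each library's mapped total) in 4 or more of the 8 libraries entered the test, 10028 in all. Changes are differences in log2(FPKM + 1), a scale on which the changes of genes near or below 1 FPKM come out too small, and a gene is said to rise or fall where limma gave a Benjamini-Hochberg adjusted p below 0.05 over all genes tested. Summed FPKM ran from 348923 to 433489 per library and 9901 to 10134 genes reached 1 FPKM. The files hold no counts, so depth is unknown, and the low values put the ratio of the deepest to the shallowest of these libraries at about 1.61. The 17 pre-B markers, among them Vpreb1 and Igll1, summed to 3719 to 4351 FPKM in the 8 libraries, so the labelled cell type was borne out by its markers in each. Control replicate 2 stood apart. The macrophage markers, 16 of 17 in the table and 6 below 1 FPKM in all 8 libraries, summed to 632 FPKM there, against 69.6, 78.2 and 118 FPKM in the other control libraries and 64.5 to 73.4 FPKM with BCR-ABL1. Lyz2, the macrophage lysozyme gene, read 403 FPKM in control replicate 2, against 6.08, 12.5 and 34.3 FPKM in the other controls and 1.48 to 5.51 FPKM with BCR-ABL1, while the complement gene C1qa, which marks resident macrophages, was listed at 0 in 7 libraries and at 0.0251 FPKM in the other. In bulk RNA fewer cells of a type and less RNA per cell cannot be told apart. The count of calls, the list medians that this library moved and the largest changes are therefore given with and without it.

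**Figure D1:**
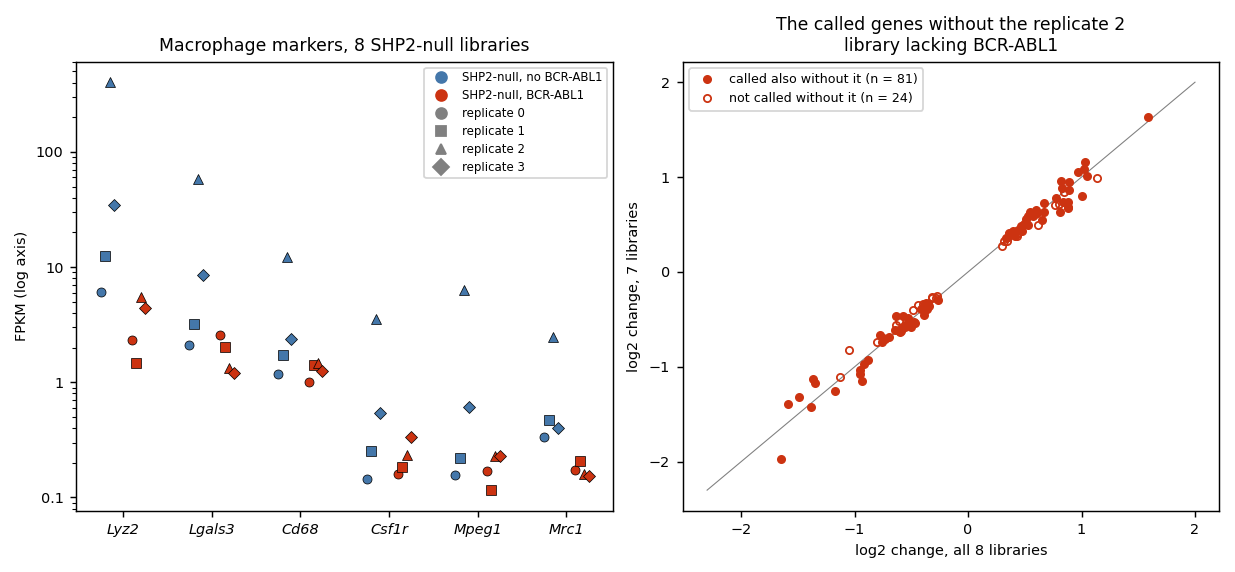
Left, FPKM (log axis) of 6 macrophage markers in the 8 SHP2-null libraries, 1 point per library, with the symbol giving the replicate number. Right, log2 change with BCR-ABL1 of the 105 called genes with all 8 libraries (x axis) and without control replicate 2 (y axis), with the line of equality. Lyz2 reaches 403 FPKM in control replicate 2, and all 105 genes keep their sign without that library.

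Of 10028 genes 105 changed with BCR-ABL1 in SHP2-null cells (1.05%), 49 higher (0.489%) and 56 lower (0.558%), and 15 of these changed by at least 2-fold, 6 higher and 9 lower. The largest falls were in Dusp6, which encodes the phosphatase that switches ERK off, and Mgll, which encodes monoacylglycerol lipase. The largest rises were in the stress-response gene Nupr1, in Ankrd37, a hypoxia-responsive gene, and in Bex6, followed by Il7r, the gene of the interleukin 7 receptor. In each of the 105 genes the groups did not overlap. That was so for 683 of all genes tested (6.81%), 373 of them higher (3.72%) and 310 lower (3.09%). Of the called genes 11, Dusp6 among them, reached 1 FPKM in all 4 libraries of one group and none of the other. They entered the test only through the group in which they were high, so that some difference was built into the filter.

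At an unadjusted p below 0.05 there were 1327 genes (13.2%), the share to set beside the counts at that threshold in the lists below. The 105 had the same sign without control replicate 2, where 150 genes changed (1.5%), 76 higher (0.758%) and 74 lower (0.738%), and where 81 of the 105 passed. With the replicate number as a block, 507 genes changed (5.06%), the 105 among them, and with weights for the libraries 1823 changed. Those weights were 2.98 and 3.14 for control replicates 0 and 1 and 0.345 and 0.44 for control replicates 2 and 3. Control replicates 0 and 1 thus dominated their group in that fit. The count was 50 without BCR-ABL1 replicate 0, 45 without BCR-ABL1 replicate 2, 57 without control replicate 0 and 56 without control replicate 3, and 38 of the 105 passed whichever of the 8 libraries was left out. With the spread estimated from the 8 libraries alone 28 genes changed, 24 of them among the 105.

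The labels were checked first against the targeted gene. Ptpn11 read 7.43, 6.81, 2.87 and 6.02 FPKM in the control libraries and 3.56, 3.56, 6.07 and 4.88 FPKM with BCR-ABL1, against 15.7 to 18 FPKM in the 8 SHP2 wild-type libraries. Every SHP2-null library thus lay below every wild-type one, the 2 SHP2-null groups overlapped, and Ptpn11 did not pass with BCR-ABL1 (log2 change -0.26 ± 0.19 (SE), limma adjusted p = 0.601). The fusion itself is not seen at this level, since the FPKM of Abl1 or Bcr cannot tell the fusion from the mouse gene's own transcripts. Abl1 read 18.8, 18.4, 18.6 and 15.8 FPKM in control cells and 13.8, 18, 12.5 and 15 FPKM with BCR-ABL1 (limma adjusted p = 0.28). Bcr, which encodes a GTPase-activating protein, read 9.11, 8.64, 12.2 and 10.3 FPKM in control cells and 5.7, 6.99, 5.33 and 6.96 FPKM with BCR-ABL1. Bcr fell, with no overlap, by 0.61 on the log2 scale (limma adjusted p = 0.0252, 0.00452 to 0.11 over all alternatives). That call was lost without BCR-ABL1 replicate 0 (0.0989) or 2 (0.11), without control replicate 2 (0.0521) or 3 (0.0817), with the spread from 8 libraries (0.078) and after the GC correction (0.0673).

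The genes that report ERK activity were led by Dusp6 (chromosome 10, 99263231 to 99267489, GRCm38). It read 4.88, 3.68, 1.21 and 5.12 FPKM in control cells and 0.255, 0.446, 0.421 and 0.501 FPKM with BCR-ABL1. The lowest control library was replicate 2, the one with the macrophage markers, and it still lay above every BCR-ABL1 library. Dusp6 averaged 3.72 ± 1.79 FPKM (SD, n = 4) without and 0.406 ± 0.106 FPKM with BCR-ABL1, which is 9.17-fold lower on the means. Its log2 change was -1.65 ± 0.24 (SE, limma adjusted p = 0.00458), or -1.98 without control replicate 2 (adjusted p = 7.44e-06). Dusp7 (chromosome 9, 106368632 to 106375724), which encodes another phosphatase of ERK, read 5.9, 6.27, 3.05 and 6.62 FPKM in control cells and 1.76, 2.69, 2.13 and 2.65 FPKM with BCR-ABL1. It fell by 0.93 on the log2 scale (limma adjusted p = 0.00981), or by 1.14 without control replicate 2, which was again the lowest of its group.

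Of the 20 genes listed as the ERK pathway response 6 were expressed highly enough to be tested, and 12 stayed below 1 FPKM in all 8 libraries. Among the 6 only Dusp6 passed, 1 had a positive change, and the median log2 change was -0.22, against -0.01 over all genes. That median was -0.33 without control replicate 2 and -0.16 without control replicate 0. With the replicate block 2 of the 6 fell, against 2.6% of all genes. Spred1, which encodes an inhibitor of RAS signalling, read 11.3, 11.3, 5.82 and 7.26 FPKM in control cells and 8.13, 7.36, 7.62 and 6.52 FPKM with BCR-ABL1, and these groups overlapped (limma adjusted p = 0.645). Sprouty 2, encoded by Spry2, another RAS-ERK inhibitor, read 1.54, 1.43, 1.7 and 1.49 FPKM in control cells and 1.15, 1.12, 0.971 and 1.33 FPKM with BCR-ABL1, without overlap and without passing (limma adjusted p = 0.196).

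Both Etv5 and Spred2 were left out of the test by the filter on low values, and their levels are given as a description. Etv5, which encodes an ETS transcription factor induced by ERK, read 2.82, 2.3, 0.214 and 0.887 FPKM in control cells and 0.298, 0.291, 0.31 and 0.273 FPKM with BCR-ABL1. The control library with the macrophage markers was the lowest of the 8, and the other 3 control libraries lay above every BCR-ABL1 library. Spred2, which encodes another inhibitor of RAS signalling, read 1.02, 0.822, 0.825 and 0.751 FPKM in control cells and 0.161, 0.208, 0.316 and 0.188 FPKM with BCR-ABL1, so that the groups did not overlap. Dusp5 was the member with the positive change, at 11.4 ± 1.42 FPKM without and 13 ± 3.43 FPKM with BCR-ABL1 (SD, n = 4, limma adjusted p = 0.792).

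In SHP2 wild-type cells Dusp6 started from higher levels. It read 10.1, 9.03, 14.8 and 11.2 FPKM without and 0.71, 0.888, 0.786 and 1.11 FPKM with BCR-ABL1, a log2 change of -2.70. On the log2(FPKM + 1) scale the change was smaller in SHP2-null cells by 1.05 ± 0.34 (SE), with an unadjusted p of 0.00744 that did not pass over all genes (limma adjusted p = 0.838). With BCR-ABL1 Dusp6 lay near or below 1 FPKM in both backgrounds, where this scale makes changes come out too small. The size of the difference is therefore uncertain. Spred1 fell in wild-type cells (log2 change -0.86, limma adjusted p = 0.00632) and changed by -0.20 in SHP2-null cells, and this difference did not pass either (unadjusted p = 0.00929, adjusted p = 0.853).

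**Figure D2:**
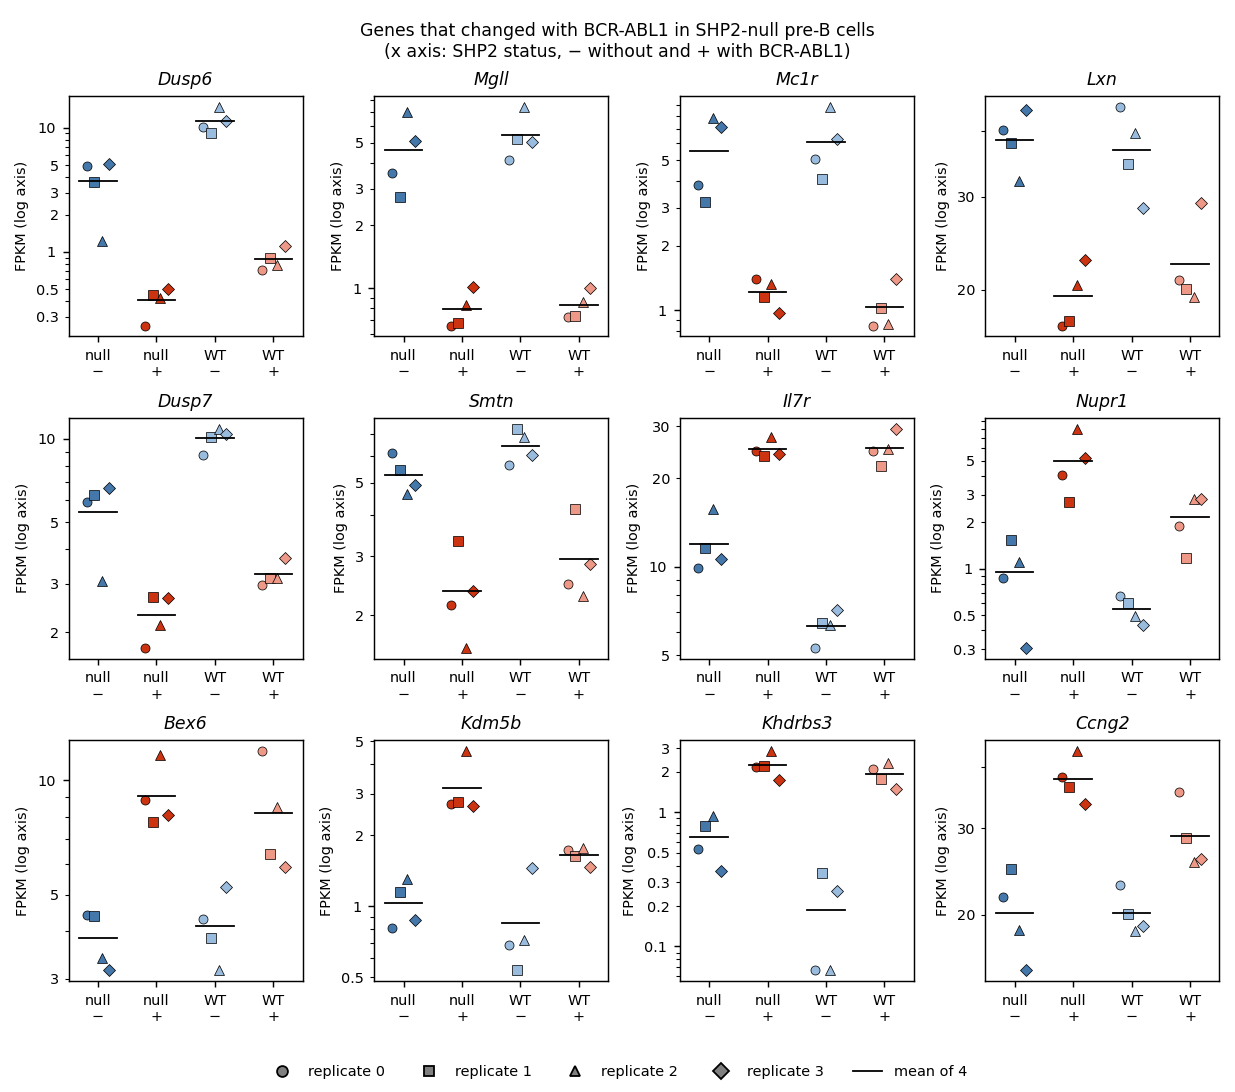
FPKM (log axis) of 12 genes in the 16 libraries, 1 point per library, with lines at the mean of 4. The x axis gives SHP2 status (null or WT) without (−) and with (+) BCR-ABL1, and the symbol gives the replicate number. In the SHP2-null cells on the left of each plot the groups do not overlap for any of the 12 genes, and Dusp6 goes from 1.21 to 5.12 FPKM without BCR-ABL1 to 0.255 to 0.501 FPKM with it.

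Il7r (chromosome 15, 9505788 to 9530176) read 9.88, 11.6, 15.7 and 10.6 FPKM in control cells and 24.7, 23.8, 27.6 and 24.1 FPKM with BCR-ABL1. The highest control library was replicate 2, and it lay below every BCR-ABL1 library. The mean rose from 11.9 ± 2.58 to 25 ± 1.76 FPKM (SD, n = 4). On the log2 scale this was 1.03 ± 0.12 (SE, limma adjusted p = 0.00113), or 1.16 without control replicate 2. In SHP2 wild-type cells Il7r read 5.3, 6.42, 6.31 and 7.13 FPKM without and 24.8, 21.9, 25.1 and 29.4 FPKM with BCR-ABL1. The BCR-ABL1 libraries thus covered overlapping ranges in both backgrounds, while the SHP2-null controls all lay above the wild-type controls. The rise was smaller in SHP2-null cells by 0.82 ± 0.17 (SE) on the log2 scale, with an unadjusted p of 0.00023 and an adjusted p of 0.575 in limma.

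None of the receptor's signalling partners passed the test. Of 16 genes of the interleukin 7 receptor, JAK and STAT list, which holds the receptor chains, the kinases they activate and the STAT factors, Il7r alone passed. Another 5 had a positive change and the median was -0.04, or 0.02 without control replicate 2. Stat5b, which encodes one of the STAT5 proteins, read 11.8 ± 1.13 FPKM in control cells and 11.6 ± 1.07 FPKM with BCR-ABL1 (SD, n = 4, limma adjusted p = 0.946). Among 14 tested STAT5 target genes none passed by limma with or without the replicate block, 1 had an unadjusted p below 0.05, 9 had a positive change and the median was 0.08. Without control replicate 3 these were 7 and 0.0017. Cish, an inhibitor of cytokine signalling and a textbook STAT5 target, read 11.5, 9.98, 16.4 and 10.1 FPKM in control cells and 8.99, 12.1, 9.06 and 10.4 FPKM with BCR-ABL1 (limma adjusted p = 0.692). Socs2, of the same inhibitor family, read 139 ± 11.5 and 162 ± 10.9 FPKM (SD, n = 4, limma adjusted p = 0.393), and Pim1, which encodes a kinase induced by STAT5, read 95.2 ± 10.6 and 101 ± 16.7 FPKM (limma adjusted p = 0.872).

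Promoter sequences are shown for a STAT5 target that did not pass and for the receptor gene that rose. They are RefSeq promoter windows of GRCm38.p6, from 250 bases before to 50 bases after the start that RefSeq gives, 5′ to 3′ on the gene's strand, with matches to TTCNNNGAA, the core that STAT proteins recognise and which reads the same on both strands, in capitals. The window of Cish is chr9:107296409-107296708 (plus strand) and that of Il7r is chr15:9529827-9530126 (minus strand). Both lie inside the GENCODE span of their gene, whose outermost start is further upstream, so they cover the RefSeq start only.
Cish: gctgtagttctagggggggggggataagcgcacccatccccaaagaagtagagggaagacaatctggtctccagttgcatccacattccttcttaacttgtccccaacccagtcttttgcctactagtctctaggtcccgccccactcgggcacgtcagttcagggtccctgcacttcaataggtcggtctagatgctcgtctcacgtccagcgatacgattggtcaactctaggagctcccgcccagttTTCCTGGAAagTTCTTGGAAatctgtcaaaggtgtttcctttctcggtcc
Il7r: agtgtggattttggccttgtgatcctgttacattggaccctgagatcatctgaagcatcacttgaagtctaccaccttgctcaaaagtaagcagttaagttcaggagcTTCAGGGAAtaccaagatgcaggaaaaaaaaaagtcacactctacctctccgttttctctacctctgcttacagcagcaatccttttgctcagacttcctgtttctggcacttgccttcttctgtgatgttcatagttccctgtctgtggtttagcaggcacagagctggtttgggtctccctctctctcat
Cish held 2 matches and Il7r 1. Of all 32851 windows 8.3% held a match, and of the 15 windows of the tested STAT5 target genes 2 did (13.3%). They belonged to Cish and Socs3, 2 of the 11 such genes with a window. A match describes the letters only.

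Among genes of the BCR-ABL1 signalling complex, such as adaptors, scaffolds and kinases, 23 of 27 were tested, 13 had a positive change and the median was 0.01, or -0.04 without control replicate 3. Bcr fell (above) and Gab3 rose. Gab3, which encodes a GAB scaffold protein of the family that SHP2 binds, read 1.02, 0.907, 1.05 and 0.908 FPKM in control cells and 1.72, 1.5, 1.43 and 1.41 FPKM with BCR-ABL1, a log2 change of 0.35 (limma adjusted p = 0.0439, 0.00509 to 0.163 over all alternatives). The call of Gab3 held without control replicate 2 (0.0401) and was lost without any other of the 8 libraries (0.0648 to 0.163), with pseudocount 0.1 (0.0532), with quantile normalization (0.0563), with the spread from 8 libraries (0.118) and after the GC correction (0.0519). Gab2 read 4.98 ± 1.48 and 4.92 ± 0.341 FPKM (SD, n = 4, limma adjusted p = 0.983). Of 18 tested protein tyrosine phosphatase genes Ptpn9 fell, from 5.25, 4.57, 3.99 and 4.14 FPKM in control cells to 3.23, 2.83, 2.87 and 2.76 FPKM with BCR-ABL1 (log2 change -0.48 ± 0.08 (SE), limma adjusted p = 0.00528). With the replicate block 3 of the 18 rose and 2 fell, where 2.45% of all genes rose and 2.6% fell.

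Both genes of the phosphoinositide 3-kinase gamma adaptors fell. Pik3r6, which encodes one of them, read 3.45, 3.08, 3.48 and 3.24 FPKM in control cells and 2, 2.35, 2.35 and 2.44 FPKM with BCR-ABL1 (limma adjusted p = 0.00659). Pik3r5, its neighbour on chromosome 11, which encodes the other, read 3.77, 3.34, 6.77 and 4.44 FPKM in control cells and 2.46, 2.97, 2.2 and 2.43 FPKM with BCR-ABL1 (limma adjusted p = 0.034, 0.00607 to 0.203 over all alternatives). It was named after its values were seen. The call of Pik3r5 was lost without BCR-ABL1 replicate 0, 2 or 3 (0.103, 0.137 and 0.0744), without control replicate 3 (0.0914), with no filter on low values (0.0578), with the spread from 8 libraries (0.203) and after the GC correction (0.0735).

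Mgll (chromosome 6, 88724412 to 88828360), which encodes monoacylglycerol lipase, had the largest fall after Dusp6. It read 3.56, 2.74, 7 and 5.12 FPKM in control cells and 0.66, 0.676, 0.827 and 1.01 FPKM with BCR-ABL1. Control replicates 2 and 3, the 2 with the highest Lyz2, were also the highest in Mgll, and the remaining controls lay above every BCR-ABL1 library. The log2 change of Mgll was -1.59 ± 0.19 (SE, limma adjusted p = 0.00113), or -1.40 without control replicate 2 (0.00111). Mc1r (chromosome 8, 123407107 to 123410744), the melanocortin 1 receptor gene, read 3.83, 3.21, 7.86 and 7.11 FPKM in control cells and 1.4, 1.15, 1.32 and 0.974 FPKM with BCR-ABL1. It fell by 1.49 ± 0.23 (SE) on the log2 scale (limma adjusted p = 0.00496), with a log2 change of -1.31 without control replicate 2 (0.00863).

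Tubb3, which encodes a beta-tubulin best known from neurons, starts 680 bases after Mc1r ends and on the same strand, so that reads of one may have been counted for the other and both are uncertain. It read 48.1, 43.7, 93.7 and 91.8 FPKM in control cells and 19.7, 26.4, 23.1 and 32.6 FPKM with BCR-ABL1. As in Mc1r, control replicates 2 and 3 were the highest. Tubb3 fell by 1.35 on the log2 scale (limma adjusted p = 0.0166, 0.00161 to 0.0789 over all alternatives), and the call was lost without BCR-ABL1 replicate 0 (0.0651) or 2 (0.0674), without control replicate 3 (0.0628) and with the spread from 8 libraries (0.0789).

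A group of falling genes passed under every alternative planned. Lxn, which encodes the carboxypeptidase inhibitor latexin, read 40.1, 37.9, 32.1 and 43.7 FPKM in control cells and 17.1, 17.5, 20.4 and 22.8 FPKM with BCR-ABL1 (log2 change -0.95 ± 0.15 (SE), limma adjusted p = 0.00528, or -1.03 without control replicate 2). It lies within Gfm1, on the opposite strand, and whether the authors counted by strand is not stated in the sources used here, so its reads may be shared. Smtn, which encodes the actin-binding protein smoothelin, read 6.14, 5.46, 4.61 and 4.91 FPKM in control cells and 2.14, 3.34, 1.59 and 2.37 FPKM with BCR-ABL1 (log2 change -0.92 ± 0.15 (SE), limma adjusted p = 0.00722).

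Myo7a, an unconventional myosin gene, averaged 4.11 ± 0.249 FPKM in control cells and 2.08 ± 0.288 FPKM with BCR-ABL1 (SD, n = 4, limma adjusted p = 0.000969). Steap3, which encodes an iron reductase, averaged 8.62 ± 1.29 and 4.66 ± 0.485 FPKM, Sipa1, which encodes a GTPase-activating protein for RAP, 26.4 ± 1.71 and 16 ± 2.58 FPKM, and Galnt10, a glycosyltransferase gene, 4.63 ± 0.312 and 2.74 ± 0.244 FPKM. The actin-associated gene Rai14 averaged 2.06 ± 0.507 and 0.941 ± 0.104 FPKM, and Stau2, which encodes an RNA-binding protein, 2.43 ± 0.307 and 1.39 ± 0.165 FPKM. In each of these 6 genes the lowest control library lay above the highest BCR-ABL1 library. With the spread from 8 libraries, however, Rai14 and Stau2 lost their call (limma adjusted p = 0.0653 and 0.0561).

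Other large falls lost their call without single libraries. Crip1, which encodes a small LIM protein, read 376, 334, 351 and 500.4 FPKM in control cells and 91.6, 127, 200.1 and 201 FPKM with BCR-ABL1. Control replicate 3 was the highest. Crip1 fell by 1.38 on the log2 scale (limma adjusted p = 0.0212, 0.000415 to 0.0817 over all alternatives), and the call was lost without BCR-ABL1 replicate 0 (0.0755) or 1 (0.0609), without control replicate 0 (0.0581) or 3 (0.0817) and with the spread from 8 libraries (0.0653). Eng, which encodes the TGF-beta co-receptor endoglin, read 5.25, 4.63, 3.69 and 6.71 FPKM in control cells and 1.55, 2.28, 1.85 and 2.77 FPKM with BCR-ABL1. It fell by 0.96 on the log2 scale (limma adjusted p = 0.0206, 0.00124 to 0.0848 over all alternatives), and lost its call without BCR-ABL1 replicate 0 (0.0808) or 2 (0.0848), without control replicate 0 (0.0642) or 3 (0.0809) and with the spread from 8 libraries (0.0561).

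Nkd2, which encodes an antagonist of WNT signalling, read 1.78, 1.4, 5.42 and 4.65 FPKM in control cells and 0.314, 0.437, 0.688 and 0.709 FPKM with BCR-ABL1. Replicates 2 and 3 were the higher ones in both groups. Its log2 change was -1.37 (limma adjusted p = 0.0206, 0.00118 to 0.119 over all alternatives), and the call was lost without BCR-ABL1 replicate 0, 1 or 2 (0.0777, 0.0532 and 0.0602), without control replicate 3 (0.0809) and with the spread from 8 libraries (0.119). Rarres1, a gene beside Lxn that encodes a related protein, read 1.22, 1.31, 1.33 and 2.53 FPKM in control cells and 0.319, 0.335, 0.24 and 0.678 FPKM with BCR-ABL1. Replicate 3 was the highest library of each group in Rarres1, and the log2 change was -0.88 (limma adjusted p = 0.0166, 0.00383 to 0.078 over all alternatives). That call was lost without BCR-ABL1 replicate 0 or 2 (0.0597 and 0.078) and with the spread from 8 libraries (0.0653).

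Sit1, which encodes a membrane adaptor of lymphocytes, read 15.6, 15, 15.3 and 29.4 FPKM in control cells and 5.68, 6.48, 7.39 and 11 FPKM with BCR-ABL1, again with replicate 3 the highest of each group. Its log2 change was -1.18 (limma adjusted p = 0.038, 0.00173 to 0.138 over all alternatives). The call of Sit1 was lost without BCR-ABL1 replicate 0, 1 or 2 (0.138, 0.0798 and 0.116), without control replicate 0 or 3 (0.0675 and 0.11), with either other filter (0.0644 and 0.0584), with the spread from 8 libraries (0.0858) and after the GC correction (0.0689).

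Nupr1 (chromosome 7, 126623249 to 126630861), which encodes a small nuclear protein induced by stress, read 0.867, 1.53, 1.1 and 0.307 FPKM in control cells and 4.04, 2.71, 8.02 and 5.22 FPKM with BCR-ABL1. It had the largest rise of the called genes, 1.58 ± 0.25 (SE) on the log2 scale (limma adjusted p = 0.00528), or 1.63 without control replicate 2. Kdm5b, which encodes a demethylase of histone H3 lysine 4, read 0.805, 1.15, 1.31 and 0.876 FPKM in control cells and 2.7, 2.77, 4.54 and 2.67 FPKM with BCR-ABL1 (log2 change 1.02 ± 0.15 (SE), limma adjusted p = 0.00458, or 1.08 without control replicate 2). Khdrbs3, which encodes an RNA-binding protein that acts in splicing, read 0.537, 0.784, 0.937 and 0.368 FPKM in control cells and 2.17, 2.21, 2.86 and 1.75 FPKM with BCR-ABL1 (limma adjusted p = 0.00413).

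In all 3 of these genes BCR-ABL1 replicate 2 was the highest library, and in each the lowest BCR-ABL1 library lay above the highest control. Bex6, a member of the brain-expressed gene family, read 4.42, 4.41, 3.41 and 3.17 FPKM in control cells and 8.86, 7.75, 11.7 and 8.11 FPKM with BCR-ABL1 (log2 change 1.05 ± 0.18 (SE), limma adjusted p = 0.00995). Psme4, which encodes a proteasome activator, rose from 33.6 ± 1.00 to 50.7 ± 6.17 FPKM (SD, n = 4, limma adjusted p = 0.00413), and Angptl4, which encodes a secreted inhibitor of lipoprotein lipase, from 1.44 ± 0.301 to 2.85 ± 0.243 FPKM (limma adjusted p = 0.0105).

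Tlr7, the endosomal receptor for single-stranded RNA, read 0.666, 0.979, 0.925 and 0.327 FPKM in control cells and 2.97, 1.97, 2.37 and 1.51 FPKM with BCR-ABL1 (log2 change 0.89 ± 0.16 (SE), limma adjusted p = 0.0115). Slc15a4, which encodes an endolysosomal transporter needed for TLR7 signalling, rose from 10.6 ± 0.737 to 13.8 ± 0.375 FPKM (SD, n = 4, limma adjusted p = 0.00981). Prg3, which encodes a protein of eosinophil granules, read 1.11, 1.09, 0.146 and 0.754 FPKM in control cells and 2.51, 2.11, 2.4 and 2.83 FPKM with BCR-ABL1 (limma adjusted p = 0.00659). Control replicate 2 was the lowest in Prg3, and without it the log2 change went from 1.00 to 0.80 (limma adjusted p = 0.00509). Hpgds, which encodes a prostaglandin D synthase of blood cells, rose from 0.845 ± 0.181 to 1.63 ± 0.0976 FPKM (SD, n = 4, limma adjusted p = 0.00659). Of the 6 tested macrophage markers 0 had a positive change with BCR-ABL1, and their median log2 change was -0.71. Without control replicate 2 it was 1 of 6, with a median of -0.23. The neutrophil markers summed to 0.135 to 6.54 FPKM with BCR-ABL1 and 0.399 to 4.5 FPKM in control cells. The mast cell and basophil markers summed to 0.855 to 4.43 FPKM with BCR-ABL1 and 0.254 to 15.1 FPKM in control cells. The part of other cells in these 4 rises was not tested.

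With the spread estimated from the 8 SHP2-null libraries alone, the calls of Dusp6 (adjusted p = 0.0561), Dusp7 (0.102), Nupr1 (0.0561), Rai14 (0.0653), Stau2 (0.0561), Ptpn9 (0.0653), Pik3r6 (0.0687), Tlr7 (0.0674), Prg3 (0.0653), Hpgds (0.0598), Slc15a4 (0.0674) and Psme4 (0.0549) were lost in limma. These 12 passed under all other alternatives planned that gave them a value. Their lowest adjusted p under an alternative ran from 7.44e-06 for Dusp6 to 0.00193 for Rai14.

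Sla, which encodes an adaptor that dampens antigen receptor signals, read 18, 18, 8.91 and 14.7 FPKM in control cells and 27.9, 25, 30.0 and 26.9 FPKM with BCR-ABL1. The lowest was control replicate 2, and without it the log2 change of Sla went from 0.88 to 0.67 (limma adjusted p = 0.0166 and 0.00718, 0.00218 to 0.111 over all alternatives). The call was lost without BCR-ABL1 replicate 0 (0.0549) or 2 (0.0703) and with the spread from 8 libraries (0.111). Cd28, the co-stimulatory receptor gene best known from T cells, read 0.274, 0.389, 0.865 and 0.129 FPKM in control cells and 1.97, 1.56, 1.23 and 1.11 FPKM with BCR-ABL1, while the T and NK cell markers summed to 31.5 to 39.3 FPKM in control cells and 38.7 to 41.1 FPKM with BCR-ABL1. The part of T cells in this rise was not tested. Its log2 change was 0.82 (limma adjusted p = 0.015, 0.000771 to 0.0905 over all alternatives), and the call was lost without BCR-ABL1 replicate 0 (0.0579), without control replicate 0 or 3 (0.0524 and 0.0522) and with the spread from 8 libraries (0.0905).

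Among FOXO targets and genes that slow cell division 3 rose and 1 fell. FOXO factors are held out of the nucleus by AKT signalling and induce cell cycle inhibitors and Il7r. Of 18 tested members 12 had a positive change and the median log2 change was 0.23, or 0.19 without control replicate 2, while 47.7% of all genes had a positive change with a median of -0.01. Il7r, Ccng2 and Txnip rose and Irs2 fell. With the replicate block 5 rose and 1 fell, against 2.45% and 2.6% of all genes, and without control replicate 2 it was 4 and 1. The list was chosen with earlier results of these data known, so its direction is not independent evidence.

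Ccng2 (chromosome 5, 93267257 to 93276231), which encodes cyclin G2, an inhibitor of proliferation, read 21.8, 24.8, 18.6 and 15.4 FPKM in control cells and 38.2, 36.4, 43.1 and 33.6 FPKM with BCR-ABL1. The groups did not overlap, and the log2 change was 0.89 ± 0.13 (SE, limma adjusted p = 0.00485), or 0.86 without control replicate 2. Txnip, which encodes an inhibitor of thioredoxin and glucose uptake, read 22.1, 23, 17.9 and 19 FPKM in control cells and 29.5, 29.9, 48.9 and 36.1 FPKM with BCR-ABL1 (limma adjusted p = 0.0364, 0.00501 to 0.122 over all alternatives). Irs2, an adaptor of the insulin receptor and a FOXO target, read 1.21, 1.28, 1.21 and 1.76 FPKM in control cells and 0.377, 0.733, 0.463 and 0.672 FPKM with BCR-ABL1 (limma adjusted p = 0.0283, 0.00289 to 0.112 over all alternatives).

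The calls of Txnip and Irs2 were lost under several alternatives. That of Txnip was lost without BCR-ABL1 replicate 2 or 3 (0.122 and 0.0767), without control replicate 0, 2 or 3 (0.0678, 0.0698 and 0.107), with either other filter (0.0578 without a filter and 0.0573 with a mean of at least 5 FPKM) and with the spread from 8 libraries (0.0973). Txnip also lies within Gm15441, of the opposite strand, which averaged 0.177 FPKM. The call of Irs2 was lost without BCR-ABL1 replicate 0 or 2 (0.112 and 0.11), without control replicate 0, 1 or 3 (0.0579, 0.0518 and 0.101), with the spread from 8 libraries (0.067) and after the GC correction (0.0686). Cdkn1b, which encodes the CDK inhibitor p27, read 10.6, 11.4, 13 and 11.2 FPKM in control cells and 12.5, 14.7, 14.3 and 14.5 FPKM with BCR-ABL1, which passed with the replicate block (limma adjusted p = 0.0468) but not without it (0.106). The anti-proliferative gene Btg1 read 17.6, 19.5, 13.1 and 11.7 FPKM in control cells and 27.9, 26.8, 22.6 and 20.1 FPKM with BCR-ABL1, and likewise passed with the block (0.00115) but not without it (0.147). In Btg1 replicates 2 and 3 were lower than replicates 0 and 1 in both groups.

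**Figure D3:**
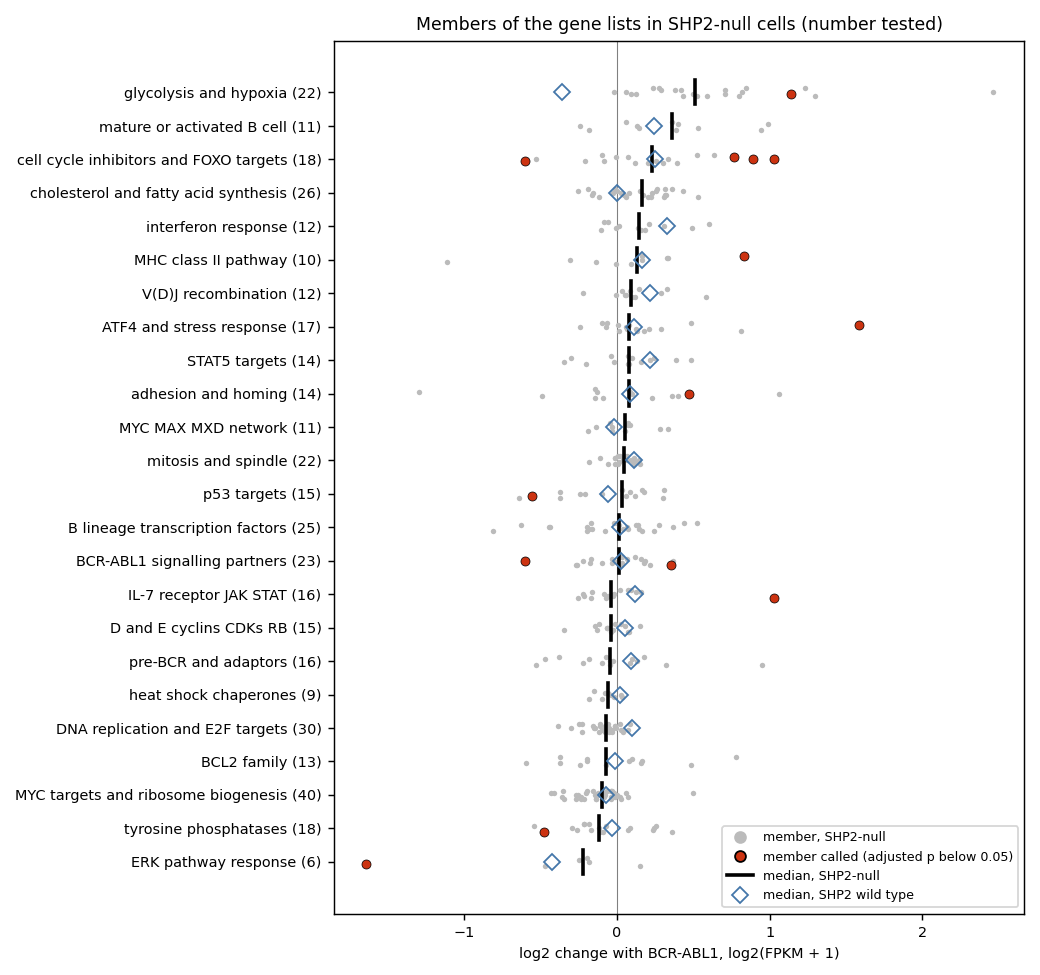
Log2 change with BCR-ABL1 in SHP2-null cells of each tested member of the 24 gene lists, 1 point per gene, with called genes in red, the list median as a black bar and the median in SHP2 wild-type cells as an open diamond. Lists are ordered by their median in SHP2-null cells, and glycolysis and hypoxia stands at 0.51 in SHP2-null and -0.36 in SHP2 wild-type cells. The wild-type medians were not recomputed with single libraries left out.

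No gene of the MYC target, DNA replication or mitosis lists passed in the main fit, which had no block. Of 40 MYC targets and ribosome biogenesis genes 5 had a positive change, with a median log2 change of -0.10, or -0.18 without control replicate 2 and -0.05 without control replicate 3, and 0 passed in limma (7 at an unadjusted p below 0.05). With the replicate block Rrp12 and Bop1, which act in ribosome assembly, fell. Myc read 41.1, 37.2, 28.1 and 29.2 FPKM in control cells and 29, 39.1, 23.1 and 27.5 FPKM with BCR-ABL1, groups that overlapped (limma adjusted p = 0.719). Of 30 DNA replication and E2F target genes 5 had a positive change with a median of -0.07, or -0.11 without control replicate 2 and -0.03 without BCR-ABL1 replicate 1, while 25 of the 30 had one in SHP2 wild-type cells, where the median was 0.10. Among these 30 none passed in SHP2-null cells by limma with or without the block (3 at an unadjusted p below 0.05). For the difference between backgrounds 5 of the 30 had an unadjusted p below 0.05 in limma, as did 5.61% of all genes, and none passed adjusted. Mcm2, which encodes a subunit of the replicative helicase, read 75.1 ± 6.24 FPKM in control cells and 64 ± 6.02 FPKM with BCR-ABL1 (SD, n = 4, limma adjusted p = 0.229). Of the 22 mitosis and spindle genes 16 had a positive change with a median of 0.04, and 0 passed in limma or had an unadjusted p below 0.05. Without control replicate 2 these were 11 and 0.0003, and without BCR-ABL1 replicate 1 they were 18 and 0.09.

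No pre-B receptor or B-lineage factor gene passed in the main fit, and 1 B-lineage factor gene fell when BCR-ABL1 replicate 3 was left out. Igll1 and Vpreb1, the surrogate light chain genes of the pre-B receptor, averaged 665 ± 93.4 and 545 ± 93.8 FPKM in control cells and 643 ± 61 and 509 ± 80.2 FPKM with BCR-ABL1 (SD, n = 4, limma adjusted p = 0.906 and 0.84). None of the 16 pre-B receptor and adaptor genes passed by limma (5 at an unadjusted p below 0.05, where 13.2% of all genes stood). With the block 1 of the 16 fell, as did 2.6% of all genes. Of 25 B-lineage transcription factor genes, whose median was 0.01, or -0.08 without control replicate 3, limma passed 0 (6 had an unadjusted p below 0.05), and Id3 and Gfi1 fell with the block (limma adjusted p = 0.0139 and 0.0356). Id3, which encodes an inhibitor of E proteins, read 28.1, 29.4, 28.9 and 34.5 FPKM in control cells and 11.4, 21.1, 13.4 and 24.2 FPKM with BCR-ABL1.

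The recombinase gene Rag1 shows what control replicate 2 did to single values. It read 3.5, 3.41, 25 and 4.45 FPKM in control cells and 11.7, 12.2, 9.06 and 7.35 FPKM with BCR-ABL1. With all libraries the log2 change was 0.58 (limma adjusted p = 0.625), and without control replicate 2 it was 1.19 (0.0366), with no overlap among the 7 libraries left. Rag1 was singled out after its values were seen. Of the 12 V(D)J recombination genes 10 had a positive change, and 0 passed with all libraries in limma (2 at an unadjusted p below 0.05).

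Markers of more mature or activated B cells lay higher in 9 of 11 tested members, with a median of 0.36, or 0.19 without control replicate 2 and 0.16 without control replicate 3. None passed by limma (3 at an unadjusted p below 0.05), and 1 rose without control replicate 2, where 0.758% of all genes rose. With the block Cd38 and Fcrla rose (limma adjusted p = 0.00115 and 0.0269). Cd38, an ectoenzyme of lymphocytes, read 4.62, 5.31, 1.54 and 2.22 FPKM in control cells and 10.5, 7.62, 5.82 and 5.69 FPKM with BCR-ABL1, lower in replicates 2 and 3 of each group. Among 10 class II antigen presentation genes H2-Ob alone passed. Of the 10, 6 had a positive and 4 a negative change, and the log2 changes ran from -1.11 to 0.83. With the block 2 rose and 1 fell, where 2.45% of all genes rose and 2.6% fell. Their median was 0.13, but -0.09 without control replicate 2 and -0.12 without control replicate 3. H2-Ob encodes a chain of the protein that restrains peptide loading. It read 17.5, 18.1, 11.7 and 12.2 FPKM in control cells and 27.5, 26.9, 28.7 and 24.1 FPKM with BCR-ABL1 (limma adjusted p = 0.0195, 0.00104 to 0.0811 over all alternatives). The call of H2-Ob was lost without BCR-ABL1 replicate 0 (0.0662) or 2 (0.0811), without control replicate 3 (0.0809) and with the spread from 8 libraries (0.0561).

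Of 14 adhesion and homing genes Itga6 alone passed, 2 rose and 1 fell with the block, and 1 rose and 1 fell without control replicate 2. It encodes the laminin receptor integrin alpha 6 and read 29.8, 27.8, 23.7 and 24 FPKM in control cells and 38.7, 33, 38.2 and 37.6 FPKM with BCR-ABL1 (limma adjusted p = 0.0166, 0.00423 to 0.0858 over all alternatives). The call was lost without BCR-ABL1 replicate 0 (0.065) or 2 (0.0703), without control replicate 3 (0.0659) and with the spread from 8 libraries (0.0858). Of 15 p53 targets 1 fell, or 3 with the block, and 1 rose and 2 fell without control replicate 2. For these and the other lists of this paragraph, 0.489% of all genes rose and 0.558% fell. The shares were 2.45% and 2.6% with the block, and 0.758% and 0.738% without control replicate 2. Phlda3, which encodes an inhibitor of AKT, fell from 5.62 ± 0.713 to 3.48 ± 0.217 FPKM (SD, n = 4, limma adjusted p = 0.0307, 0.00167 to 0.241 over all alternatives). That call held without control replicate 2 (0.0373) and without BCR-ABL1 replicate 1. It was lost without any other of the 8 libraries (0.0537 to 0.109), without a filter (0.0519) and after the GC correction, alone (0.241) or with the block (0.0984). Interferon response (12 tested), BCL2 family (13), cholesterol and fatty acid synthesis (26), heat shock (9), MYC network (11) and cyclin and CDK genes (15) held 0 calls by limma, with 0, 4, 3, 0, 1 and 1 genes at an unadjusted p below 0.05 in that order. With the block 1 BCL2 family gene rose and 2 fell, and 1 MYC network gene rose. Without control replicate 2 an interferon response gene rose and a BCL2 family gene fell, 1 each. Of 17 tested ATF4 and stress response genes 13 had a positive change, with a median of 0.08, or 0.12 without control replicate 2 and 0.16 without BCR-ABL1 replicate 1, and Nupr1 alone passed.

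The glycolysis and hypoxia list had the largest median of the 24 lists in SHP2-null cells. Of 22 tested members 21 had a positive change with BCR-ABL1, and the median log2 change was 0.51, or 0.47 without control replicate 2. It was 0.34 without BCR-ABL1 replicate 2 and 0.69 without BCR-ABL1 replicate 0. In SHP2 wild-type cells 1 of the 22 had a positive change and the median was -0.36, which was not recomputed with single libraries left out. The wild-type controls differed widely, with median log2 levels, relative to the mean of the 16 libraries, of -0.39, -0.15, 0.37 and 0.95. With BCR-ABL1 these levels were -0.41, -0.39, 0.41 and -0.25 in wild-type cells. In SHP2-null cells they were -0.31, -0.30, -0.44 and -0.09 in controls and -0.12, -0.07, 0.75 and 0.58 with BCR-ABL1. There Ankrd37 alone passed, where 0.489% of all genes rose, and 0 passed without control replicate 2. With the replicate block 5 of the 22 rose, adding Slc16a3, Bnip3, Egln3 and Pfkp, where 2.45% of all genes rose. For the difference between the backgrounds 13 of the 22 had an unadjusted p below 0.05, as did 5.61% of all genes, and 0 passed adjusted over all genes in limma.

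Ankrd37, an ankyrin repeat gene induced by the hypoxia factor HIF1, read 4.25, 4.63, 2.47 and 3.75 FPKM in control cells and 9.48, 7.4, 11.9 and 9.02 FPKM with BCR-ABL1. On the opposite strand it overlaps Lrp2bp, which averaged 0.0762 FPKM over the 8 libraries, and the end of Ufsp2, which averaged 18.3 FPKM, so its reads may be shared. Its log2 change was 1.14 ± 0.23 (SE, limma adjusted p = 0.0259, 0.00423 to 0.113 over all alternatives). The call was lost without BCR-ABL1 replicate 0 (0.0808), 2 (0.113) or 3 (0.0552), without control replicate 0 (0.0544), 2 (0.0555) or 3 (0.0809) and without a filter (0.0514). In SHP2 wild-type cells Ankrd37 read 4.02, 3.45, 6.96 and 8.79 FPKM without and 5.56, 3.83, 6.56 and 4.29 FPKM with BCR-ABL1, a log2 change of -0.11.

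Slc16a3 (chromosome 11, 120948480 to 120960868), which encodes the lactate exporter of glycolytic cells, read 0.465, 0.769, 0.417 and 0.458 FPKM in control cells and 3.9, 5.01, 13.7 and 10.4 FPKM with BCR-ABL1. Its log2 change of 2.46 ± 0.67 (SE) did not pass (limma adjusted p = 0.106, or 0.0187 with the block). In SHP2 wild-type cells Slc16a3 read 0.457, 0.75, 5.47 and 12.6 FPKM without BCR-ABL1 and 0.332, 0.317, 6.59 and 0.418 FPKM with it. High values thus appeared in replicates 2 and 3 of the wild-type controls, in replicate 2 of the wild-type BCR-ABL1 libraries and in all 4 SHP2-null BCR-ABL1 libraries, and in none of the SHP2-null controls.

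Bnip3, which encodes a mitophagy protein induced by hypoxia, read 22.5, 21.9, 32.3 and 30.7 FPKM in SHP2-null controls and 43.5, 36.8, 127 and 78.1 FPKM with BCR-ABL1, against 22.1, 20.8, 61.7 and 97.9 FPKM and 23.5, 17.8, 66.6 and 29.2 FPKM in SHP2 wild-type cells. Pgk1, which encodes the glycolytic phosphoglycerate kinase, read 241, 231, 222 and 316 FPKM and then 334, 283, 765 and 531 FPKM in the SHP2-null groups, and these overlapped. Neither passed (limma adjusted p = 0.296 and 0.305, or 0.0235 and 0.0625 with the block). Replicates 2 and 3 were the highest of the BCR-ABL1 libraries in both genes.

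**Figure D4:**
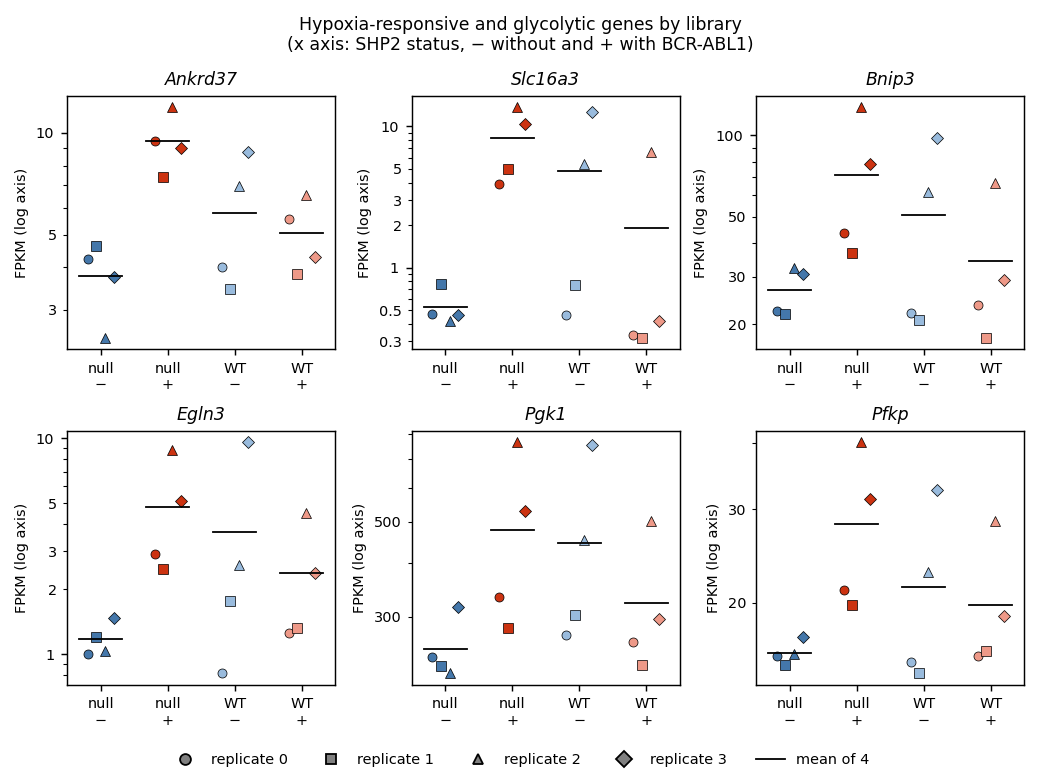
FPKM (log axis) of 6 hypoxia-responsive and glycolytic genes in the 16 libraries, 1 point per library, with lines at the mean of 4 and the symbol giving the replicate number. The x axis gives SHP2 status (null or WT) without (−) and with (+) BCR-ABL1. For Slc16a3, replicates 2 and 3 are high in the SHP2-null BCR-ABL1 group (13.7 and 10.4 FPKM) and in the wild-type controls (5.47 and 12.6 FPKM). They are low for Slc16a3 in the SHP2-null controls, and the other genes do not all share this pattern.

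Promoter windows of 3 of these genes are printed as examples. They are RefSeq windows of GRCm38.p6 as above, with matches to ACGTG, the core of the hypoxia response element, on either strand in capitals. The positions are chr8:45999801-46000100 (minus strand) for Ankrd37, chr11:120948817-120949116 (plus strand) for Slc16a3 and chr7:138909457-138909756 (minus strand) for Bnip3. Those of Ankrd37 and Slc16a3 lie inside the gene's GENCODE span, downstream of its outermost start.
Ankrd37: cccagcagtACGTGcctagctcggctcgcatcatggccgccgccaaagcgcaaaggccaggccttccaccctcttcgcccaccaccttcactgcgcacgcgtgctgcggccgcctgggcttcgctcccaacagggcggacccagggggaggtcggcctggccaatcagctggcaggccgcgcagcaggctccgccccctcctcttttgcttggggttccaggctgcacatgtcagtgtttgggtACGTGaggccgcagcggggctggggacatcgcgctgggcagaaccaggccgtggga
Slc16a3: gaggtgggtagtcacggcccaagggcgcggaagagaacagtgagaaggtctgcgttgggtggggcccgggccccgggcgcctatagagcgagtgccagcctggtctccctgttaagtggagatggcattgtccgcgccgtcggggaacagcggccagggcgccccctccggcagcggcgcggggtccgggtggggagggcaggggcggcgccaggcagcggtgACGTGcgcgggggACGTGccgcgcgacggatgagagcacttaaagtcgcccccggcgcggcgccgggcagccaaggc
Bnip3: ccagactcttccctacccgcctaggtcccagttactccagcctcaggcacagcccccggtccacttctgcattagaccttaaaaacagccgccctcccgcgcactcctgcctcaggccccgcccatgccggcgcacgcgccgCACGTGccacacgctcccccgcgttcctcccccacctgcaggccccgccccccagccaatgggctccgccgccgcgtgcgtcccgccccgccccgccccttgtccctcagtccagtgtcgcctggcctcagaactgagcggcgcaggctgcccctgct
Each held 2 matches, which in Bnip3 overlap on opposite strands as CACGTG. A match stood in the windows of 15 of the 21 tested genes of the list that have one, and in 19.6% of all 32851 windows, or 54.8% of the 31 windows of the listed genes. This describes the letters in these windows only.

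The effect of BCR-ABL1 was then set beside that in SHP2 wild-type cells, where 425 genes changed (4.24%), 281 higher (2.8%) and 144 lower (1.44%). The 2 comparisons share no library. Of the 105 genes called in SHP2-null cells 76 were called in wild-type cells, all 76 in the same direction. They make up 72.4% of the SHP2-null calls and 17.9% of the wild-type calls. Of the 105, 103 had the same sign in both, as did 413 of the 425. A test of the difference itself found 0 genes in limma, with 563 (5.61%) at an unadjusted p below 0.05, 21 of them among the 105. The larger count in wild-type cells is therefore not shown to be a difference in effect for any single gene.

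**Figure D5:**
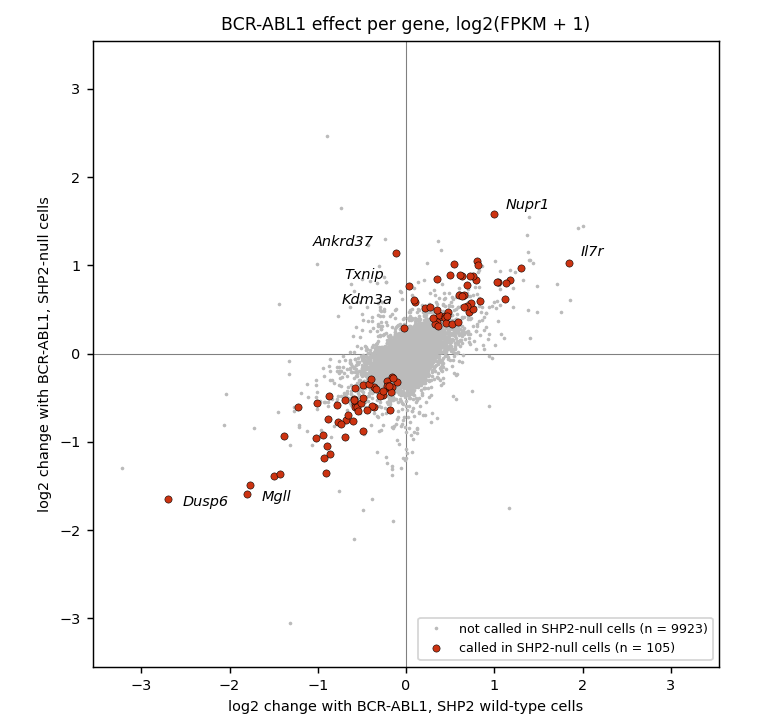
Log2 change with BCR-ABL1 of each tested gene in SHP2 wild-type cells (x axis) and in SHP2-null cells (y axis), 1 point per gene, with the 105 genes called in SHP2-null cells in red. Called genes lie in the quadrants of equal sign for 103 of the 105, and Ankrd37 is one of the 2 others.

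Among calls in SHP2-null cells with little change in wild-type cells, Armcx1, an X-linked gene for a mitochondrial membrane protein, passed under every alternative planned that gave it a value. It read 1.72, 1.5, 1.69 and 1.45 FPKM in control cells and 2.91, 2.6, 3.45 and 2.64 FPKM with BCR-ABL1 (limma adjusted p = 0.00554), and changed by 0.10 on the log2 scale in wild-type cells. The difference had an unadjusted p of 0.00203 and an adjusted p of 0.748. Kdm3a, which encodes a hypoxia-induced demethylase of histone H3 lysine 9, rose from 16 ± 0.436 to 25.1 ± 4.14 FPKM (SD, n = 4, limma adjusted p = 0.0246, 0.00169 to 0.098 over all alternatives). Its change in wild-type cells was 0.09 (limma unadjusted p of the difference 0.00933, adjusted p = 0.853). The call of Kdm3a was lost without BCR-ABL1 replicate 0, 2 or 3 (0.0662, 0.098 and 0.0514), without control replicate 0, 1 or 3 (0.0675, 0.0532 and 0.0809) and with the spread from 8 libraries (0.0561). Armcx1 and Kdm3a were chosen after their values were seen.

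The smallest p for the difference belonged to Rnase12, a gene of the ribonuclease A family. In SHP2-null cells it read 5.29, 5.83, 3.58 and 5.73 FPKM without and 3.95, 2.77, 3.77 and 3.15 FPKM with BCR-ABL1, and in wild-type cells 11.5, 7.74, 13.4 and 13.6 FPKM and 1.61, 1.78, 2.82 and 1.94 FPKM. Its fall was smaller in SHP2-null cells by 1.57 ± 0.24 (SE) on the log2 scale, which did not pass over all genes (limma adjusted p = 0.0935). It passed with array weights (0.037), without wild-type BCR-ABL1 replicate 2 (0.0438) and without wild-type control replicate 1 (0.0075).

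Fam129c, a gene expressed in B cells, had the next smallest p. It read 20.0, 19.6, 26.6 and 27.2 FPKM in SHP2-null controls and 19.2, 24, 20.3 and 26.7 FPKM with BCR-ABL1, groups that overlapped. In wild-type cells it read 12, 11.4, 11.8 and 9.77 FPKM without and 24.4, 21.5, 22.5 and 23.5 FPKM with BCR-ABL1. Of the SHP2-null controls 2 thus lay below and 2 above the range of the wild-type BCR-ABL1 libraries, and all 4 lay above the wild-type controls. The difference was -1.01 ± 0.17 (SE, limma adjusted p = 0.0998). Rnase12 and Fam129c were named after their values were seen.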

How the data were processed

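RNA of 16 mouse pre-B samples was measured by paired-end sequencing of libraries from a stranded kit, per the labels' protocols. The authors deposited gene-level FPKM values, whose depth is unknown. Bowtie, Cufflinks and mm10 (GRCm38) are named in the submitters' processing notes, without versions. The table held 23758 entries, and those of 1 symbol (254 symbols listed more than once) were summed to 23279. The 16 files of single libraries gave identical values.

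The 10028 genes that reached 1 FPKM in 4 or more SHP2-null libraries were taken as log2(FPKM + 1), pseudocount 1. Group means over the 16 libraries were fitted with limma 3.58.1 in R 4.3.3, with empirical Bayes moderation, an intensity trend and Benjamini-Hochberg adjustment over all genes at 0.05. Contrasts were BCR-ABL1 in SHP2-null cells, in SHP2 wild-type cells, and their difference. The fit was tested on simulated data.

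Members and the 24 gene and 8 marker lists were chosen with earlier results of these data known. Named by rule were 7 fixed genes, the 15 strongest rises and 15 strongest falls by size among called genes (some left out for length), and up to 4 called members of each list or the 2 with the smallest p. Other genes were named outside this rule with the results known, besides those stated as chosen after their values were seen. Called genes of this kind were Pik3r6, Myo7a, Steap3, Sipa1, Galnt10, Rai14, Stau2, Psme4, Angptl4, Slc15a4 and Hpgds. Further list members, such as Slc16a3, Bnip3, Cdkn1b and Btg1, were also picked outside the rule.

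The alternatives were pseudocount 0.1, no filter, a mean of at least 5 FPKM, quantile and median-ratio normalization, a spread from the 8 libraries alone, array weights, a GC correction (GC known for 99.3% of genes), the replicate block, and each library left out with the genes held fixed. Libraries of 1 of each group were loaded together, per the labels' protocols, without a statement that the number marks the set. Same-numbered SHP2-null libraries deviated together in each of 4 pairs (correlations 0.24 to 0.686), so the numbers were taken to pair them. Yet BCR-ABL1 replicate 2 correlated more with control replicate 3 (0.392) than with control replicate 2 (0.24). In SHP2 wild-type cells, BCR-ABL1 replicate 2 correlated 0.731 with control replicate 3 and 0.344 with control replicate 2. There BCR-ABL1 replicate 3 correlated 0.473 with control replicate 2 and 0.0539 with control replicate 3. The pairing used for the block is therefore uncertain.

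Coordinates and IDs are from GENCODE on GRCm38, by symbol. Promoter windows are from RefSeq. A gene among the list members is not reported here.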

Additional observations from a re-analysis of the deposited data

Results flagged for a closer look

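Of 152 sets of 4 libraries examined, each 1 gene in 1 SHP2-null group, 10 had a library far from the other 3 of its group, where chance gives about 1 in 20. Control replicate 2 stood high in 3 of them, with 403 FPKM of Lyz2, 58.3 FPKM of Lgals3, which is also a macrophage marker, and 5.34 FPKM of Kit, the stem cell factor receptor gene of progenitors and mast cells. Control replicate 3 stood apart in 5, at 15.8 FPKM of Abl1, lower than the other controls, and higher at 29.4 FPKM of Sit1, 2.53 FPKM of Rarres1, 1.76 FPKM of Irs2 and 4.12 FPKM of Sdc1, a plasma cell marker. BCR-ABL1 replicate 2 stood high at 4.54 FPKM of Kdm5b, and BCR-ABL1 replicate 1 at 2.52 FPKM of Bok, a BCL2 family gene.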

How the results depend on the processing

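No call in SHP2-null cells changed its direction under an alternative, while the medians of the interleukin 7 receptor, B-lineage factor, BCR-ABL1 signalling, class II, adhesion, p53 and heat shock lists changed sign when 1 of the 8 libraries was left out. The 105 calls in SHP2-null cells became 33 with a mean of at least 5 FPKM (7177 genes tested), 28 with the spread from 8 libraries, 1823 with array weights, 507 with the replicate block and 439 with the GC correction and the block. Leaving out 1 library gave 45 (without BCR-ABL1 replicate 2) to 150 (without control replicate 2). Of alternatives chosen after seeing the data, array weights without control replicate 2 gave 2328 calls and the block without it 718. The count was 100 with pseudocount 0.1, 143 without a filter, 134 and 118 with quantile and median-ratio normalization and 101 with the GC correction. Of the 105 calls, 98, 83, 100, 101 and 78 passed under these alternatives, in that order. The cause of these shifts was not tested. The rank correlation of gene levels with GC content averaged 0.298 in the control and -0.103 in the BCR-ABL1 group.

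For the difference between backgrounds, limma passed 0 genes, or 0 with the block, while 563 and 1233 had an unadjusted p below 0.05. Without a filter 3 passed (Mcpt2, Mvb12b and Tpsb2), with array weights 1, and leaving out 1 library gave 0 to 1, each time Rnase12. Among named genes the replicate block added the calls given in the text and removed none of the 105. Without counts, the precision of low genes is not known.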

Other observations

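Slc25a53, which encodes a mitochondrial carrier and overlaps Zcchc18 on the opposite strand, read 4.02, 4.14, 4.24 and 4.12 FPKM in control cells and 5.81, 5.73, 6.0 and 5.57 FPKM with BCR-ABL1 (limma adjusted p = 0.00458, 0.000261 to 0.0398 over all alternatives). The groups did not overlap, and the spread within each was small beside the difference. The gene was singled out after its values were seen.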
